A study of Rattus norvegicus with 7 samples.

Results

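Eph receptors and ephrins were examined in the cerebellum of rat pups whose mothers had eaten diets with or without enough methyl donors. The 10 genes are 6 receptors (Epha3, Epha4, Epha5, Epha7, Ephb1 and Ephb2) and 4 ligands (Efna5, Efnb1, Efnb2 and Efnb3), out of 15443 genes named on the array. They were found by matching the accession of each probe to a RefSeq gene table, because neither the scanner files nor the authors' normalized table carries gene symbols. All 10 had a probe, and 9 were kept after a filter on dim probes, since Efna5 was well above background on 1 of 7 arrays. All animals were female Wistar pups aged 21 days. The mothers of 4 of them were given standard chow (CTRL), and the mothers of the other 3 a methyl donor deficient diet (MDD) that lacked folate and vitamin B12 and held less choline. Both diets ran from 1 month before pregnancy to weaning. Each pup gave 1 array of RNA from ground cerebellum, and since litters are not named, the p-values rest on the variation among these pups, some of which may be litter mates.

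Eph receptors form a large family of receptor tyrosine kinases, and their ligands, the ephrins, are themselves bound to the cell surface. Ephrin-A proteins are held by a lipid anchor and ephrin-B proteins span the membrane, so contact between cells can send signals both into the cell with the receptor (forward) and into the cell with the ephrin (reverse). EphA receptors mostly bind ephrin-A and EphB receptors mostly ephrin-B, while Epha4 binds both classes. In the developing brain the system repels or attracts growing axons, and in the cerebellum it takes part in ordering incoming axons on the bands of Purkinje cells. In mature neurons it acts on dendritic spines and synapses.

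Of the 9 measured genes, 2 EphA receptors fell in MDD and 1 ephrin rose. Epha7 was 1.65-fold lower (log2 -0.73, SE 0.18) and Epha5 1.43-fold lower (log2 -0.51, SE 0.12), while Efnb1 was 1.46-fold higher (log2 0.55, SE 0.12). All 6 receptors had a lower mean in MDD with the 75th percentile scaling, with a median log2 change of -0.19, but Ephb2 turned to 0.03 with quantile normalization and to 0.09 on the authors' deposited table. Of the 3 measured ligands 2 had a higher mean, with a median of 0.22. With the trends of gene length and signal removed, the receptor median was 0.07. Calls rest on limma with Benjamini-Hochberg adjustment over 19991 genes and unnamed probes at 0.05, where 20.4% of everything tested was called, 12.7% higher and 7.72% lower. A total of 3 called among 9 genes is to be read against that share. Among named genes alone, 11.4% were called higher and 6.68% lower. Values of MDD and CTRL were fully separated for these 3 genes. Such separation was seen, lower in MDD, for 16.4% of everything tested and, higher in MDD, for 20.1%. With the slide row as a block, an alternative added after the data were seen, limma called 0 of the 9 (2 at an unadjusted p under 0.05) and 1 gene or probe in all. The median over all genes tested was -0.03, and 52.0% of named genes had a lower mean in MDD. No test was made of the receptors or the ligands as groups, since the genes were chosen with earlier results of these data known.

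**Figure D1:**
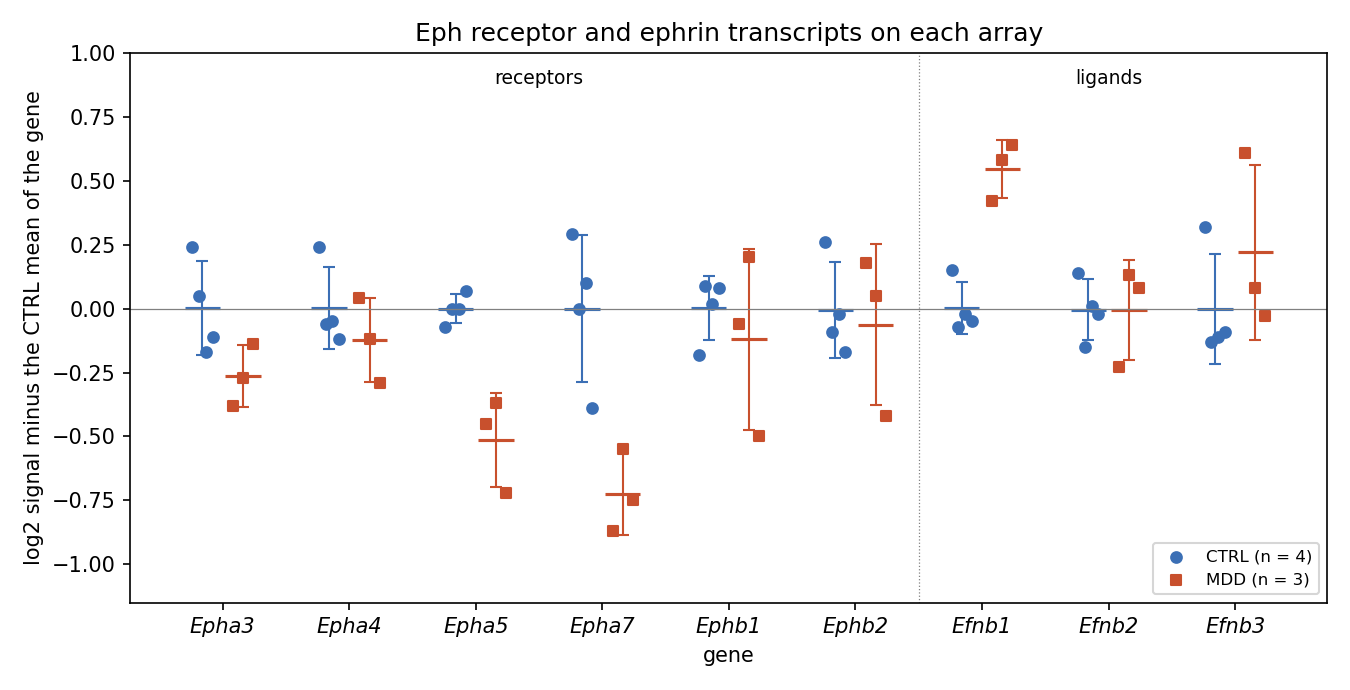
Log2 signal of each array minus the CTRL mean of the gene, for the 9 measured genes, with blue circles for CTRL (n = 4), red squares for MDD (n = 3), bars for group means and whiskers for 1 SD. The groups separate for Epha5 and Epha7, where MDD is lower, and for Efnb1, where MDD is higher, and they overlap for the other 6 genes.

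All arrays were 1-colour, with 30367 probes each. The share of spots well above background lay between 74.1% and 79.6%, with 0 saturated. Values are log2 signals relative to the 75th percentile of their own array, and that percentile ran from 1140 to 2105 intensity units. Levels of different probes are not comparable, so each gene is compared only with itself. The number of arrays limits the precision. The arrays shared 1 slide and 1 scan time. Of its 2 rows, row 1 held CTRL replicates 1 to 3 and row 2 held CTRL replicate 4 with the 3 MDD arrays, so row and diet can be told apart only through CTRL replicate 4. All 10 granule neuron markers and all 8 Purkinje cell markers were well above background on all 7 arrays, as the label cerebellum requires. In bulk tissue, fewer cells of a type and less RNA per cell cannot be told apart.

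The 250 bases before the start of the 3 genes that were called are shown because the diet lacks the nutrients that supply methyl groups. DNA methylation in the rat can fall on the dinucleotide CG. DNA methylation itself was not measured here. Sequences are from RefSeq on the GRCr8 assembly, written 5′ to 3′ on the strand of the gene, with each CG in capitals. The array itself was designed on an older assembly, rn4. The windows are chr5:47771643-47771892 (+) for Epha7, chr14:24007872-24008121 (+) for Epha5 and chrX:68297279-68297528 (+) for Efnb1.
Epha7: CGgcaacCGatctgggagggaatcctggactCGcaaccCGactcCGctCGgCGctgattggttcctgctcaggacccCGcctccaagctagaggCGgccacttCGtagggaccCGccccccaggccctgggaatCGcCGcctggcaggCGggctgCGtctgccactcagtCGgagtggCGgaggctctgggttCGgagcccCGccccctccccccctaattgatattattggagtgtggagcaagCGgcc
Epha5: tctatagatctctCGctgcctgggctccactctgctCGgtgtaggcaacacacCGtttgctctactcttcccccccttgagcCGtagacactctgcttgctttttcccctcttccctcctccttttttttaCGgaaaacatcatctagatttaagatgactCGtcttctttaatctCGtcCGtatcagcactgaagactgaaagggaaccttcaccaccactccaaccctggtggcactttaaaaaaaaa
Efnb1: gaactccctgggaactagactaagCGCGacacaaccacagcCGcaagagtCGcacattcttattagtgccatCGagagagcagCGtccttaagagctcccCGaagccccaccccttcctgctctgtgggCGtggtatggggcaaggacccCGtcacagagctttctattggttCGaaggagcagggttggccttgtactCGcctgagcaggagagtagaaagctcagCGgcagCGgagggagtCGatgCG
Epha7 held 20 CG in this window, Epha5 8 and Efnb1 15. Over 9780 measured genes with such a window the median was 15, with quartiles of 8 and 22, and 97.8% held at least 1 CG. The 2 receptors that fell thus stood at different places in that range. Entries were found for 8 of the 10 genes. The other receptor windows had 17 CG for Epha3, 13 for Ephb1 and 22 for Ephb2. Efnb2, which did not pass the test, had 43 CG, and 1.26% of measured genes had as many or more. A count of CG is a description of the letters and not of their methylation.

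Epha7, a receptor that limits the growth of axons and dendrites, gave the lowest change of the receptors. Its log2 signal was -3.80, -4.09, -3.99 and -4.48 in the 4 CTRL pups and -4.96, -4.64 and -4.84 in the 3 MDD pups. Every MDD value lay below every CTRL value, with CTRL replicate 4 the closest to MDD. The group means were -4.09 ± 0.29 (SD, n = 4) and -4.82 ± 0.16 (SD, n = 3), a difference of -0.73 with a 95% interval from -1.13 to -0.32 (limma, adjusted p = 0.0274). Before scaling, the signal was between 73.9 and 123.2 intensity units in CTRL and between 39.7 and 62.6 in MDD, so this is a dim probe. It is printed in 2 spots on each array, and the change was -0.78 at one and -0.67 at the other. The change shrank to -0.35 with normexp background correction (adjusted p = 0.143), which adds an offset of 50 units before the log, and it was -0.39 on the authors' deposited table (adjusted p = 0.0276). Within slide row 2, where CTRL replicate 4 is the control, the change was -0.34 (adjusted p = 0.413). It no longer passed when CTRL replicate 1 (adjusted p = 0.0613), 2 (0.0621) or 3 (0.0699) was left out, or MDD replicate 1 (0.0714) or 3 (0.0639), while the change stayed between -0.86 and -0.63 in all 7 leave-one-out fits.

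Epha5, a receptor for ephrin-A ligands that acts in axon mapping, showed the tightest control group. Its log2 signal was -0.78, -0.71, -0.71 and -0.64 in CTRL and -1.16, -1.08 and -1.43 in MDD. The groups did not overlap, and MDD replicate 3 was the lowest. The means were -0.71 ± 0.06 (SD, n = 4) and -1.22 ± 0.18 (SD, n = 3), a difference of -0.51 with a 95% interval from -0.80 to -0.23 (limma, adjusted p = 0.0273). The 2 spots of its probe changed by -0.55 and -0.48. The probe was brighter than that of Epha7 in raw units, from 759.5 to 1287.6 in CTRL and from 423.5 to 746.7 in MDD, and normexp left its call in place (log2 -0.45, adjusted p = 0.0287). Within slide row 2 the change was -0.59 (adjusted p = 0.191). Leaving out CTRL replicate 1 (adjusted p = 0.0550), 2 (0.0664), 3 (0.0701) or 4 (0.0797) ended the call.

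The other 4 receptors did not pass. Epha3, an EphA receptor studied in the mapping of retinal axons, had log2 signals of -2.28, -2.47, -2.69 and -2.63 in CTRL and -2.90, -2.79 and -2.66 in MDD. The groups overlapped only through MDD replicate 3, which lay between CTRL replicates 3 and 4. The difference was -0.26, with an interval from -0.58 to 0.06 (limma, adjusted p = 0.196). Ephb2, which binds and clusters NMDA-type glutamate receptors at synapses, had -2.28, -2.63, -2.56 and -2.71 in CTRL and -2.36, -2.49 and -2.96 in MDD. Its MDD values spread more widely than the difference between the means, which was -0.06 (interval -0.46 to 0.35, adjusted p = 0.835). These intervals still allow a fall of the size seen for Epha5 in the case of Epha3 and end short of it for Ephb2.

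Epha4 and Ephb1 were each read by 2 probes. Epha4, the receptor that binds both ephrin classes and collapses growth cones, had -1.13, -1.43, -1.42 and -1.49 in CTRL and -1.33, -1.49 and -1.66 in MDD on its brighter probe, with overlapping groups and a difference of -0.13 (interval -0.44 to 0.19, limma adjusted p = 0.532). On the second probe the values were -2.49, -2.63, -2.87 and -2.69 in CTRL and -2.80, -2.98 and -3.52 in MDD, and the difference was -0.43 (SE 0.19, adjusted p = 0.125 over all 22255 kept probes). Both probes of Epha4 were lower in MDD on average, and neither passed.

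Ephb1, which steers retinal axons that stay on their own side of the brain, had -0.87, -0.60, -0.67 and -0.61 in CTRL and -0.75, -0.49 and -1.19 in MDD on the brighter probe. The highest and the lowest of the 7 values were both from MDD, and the difference was -0.12 (interval -0.53 to 0.28, limma adjusted p = 0.636). On the second probe it had -2.64, -2.45, -2.09 and -2.24 in CTRL and -3.39, -2.74 and -2.51 in MDD, a difference of -0.52 (SE 0.23, adjusted p = 0.125). The array that was lowest differed between the probes, MDD replicate 3 on the first and MDD replicate 1 on the second. The second probe's change was lower than the first by 0.31 for Epha4 in an exact two-sided permutation test over the 35 splits (p = 0.0571, 0.171 adjusted over the 3 family genes with 2 kept probes). For Ephb1 it was lower by 0.40 (exact permutation p = 0.343, adjusted 0.514). The smallest p this design allows is 0.0286. Averaging the probes gave -0.28 for Epha4 and -0.32 for Ephb1, and moved the receptor median from -0.19 to -0.30.

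**Figure D2:**
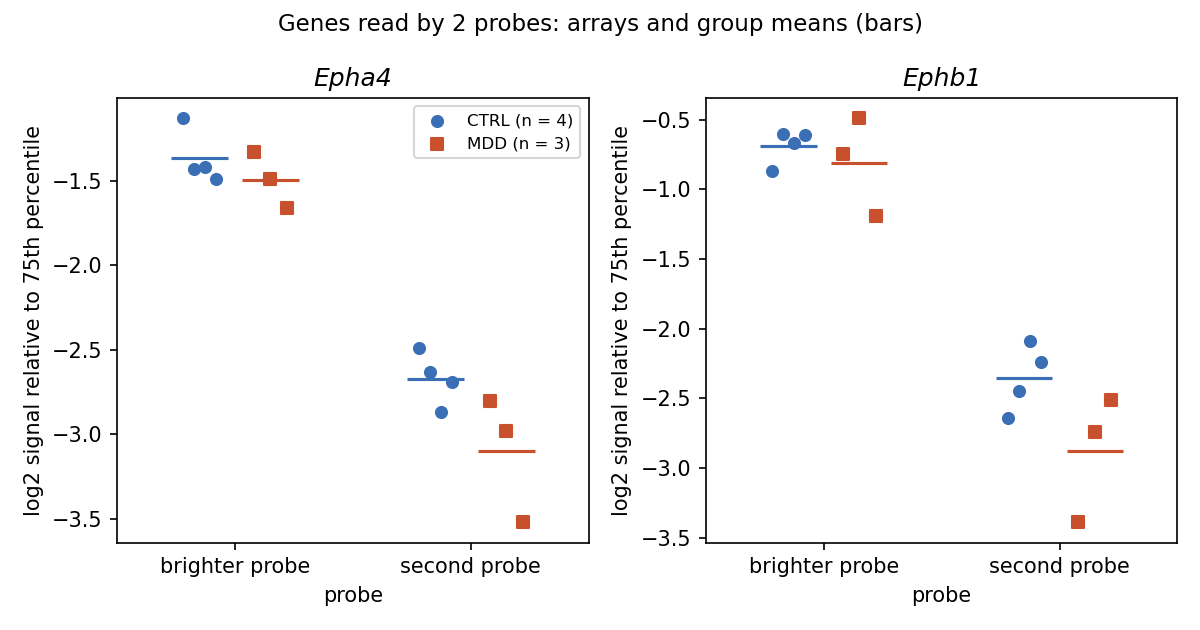
Log2 signal relative to the 75th percentile of the array for the 2 probes of Epha4 (left) and of Ephb1 (right), with blue circles for CTRL (n = 4), red squares for MDD (n = 3) and bars for group means. The second probe shows the larger gap between group means in both genes, -0.43 against -0.13 for Epha4 and -0.52 against -0.12 for Ephb1, and the height of the 2 probes is not comparable.

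Among the ligands, Efnb1, a transmembrane ephrin whose gene lies on the X chromosome, was the one that changed. Its log2 signal was -3.86, -4.08, -4.03 and -4.06 in CTRL and -3.59, -3.43 and -3.37 in MDD. All 3 MDD values were above all 4 CTRL values. The means were -4.01 ± 0.10 (SD, n = 4) and -3.46 ± 0.11 (SD, n = 3), a difference of 0.55 with a 95% interval from 0.27 to 0.82 (limma, adjusted p = 0.0202). Its 2 spots rose by 0.48 and 0.61. In unscaled units the groups overlapped, from 89.6 to 124.6 in CTRL and from 109.9 to 145.1 in MDD, and the lowest MDD value, of replicate 3, came from the array with the lowest 75th percentile. It did not pass with normexp (log2 0.36, adjusted p = 0.0977), within slide row 2 (log2 0.60, adjusted p = 0.175), or with CTRL replicate 2 (adjusted p = 0.0564), 3 (0.0601) or 4 (0.0656) left out.

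Efnb2, an ephrin-B that also marks arteries, was level between the groups. It had -2.66, -2.95, -2.79 and -2.82 in CTRL and -3.03, -2.67 and -2.72 in MDD, and the interval of the difference ran from -0.31 to 0.31 (limma, adjusted p = 0.992). Its 2 spots moved apart, by -0.22 and 0.22, so this value is the mean of opposite readings. Efnb3, the ephrin that forms a midline barrier to axons of the spinal cord, had 0.26, -0.19, -0.17 and -0.15 in CTRL and 0.55, 0.02 and -0.09 in MDD. CTRL replicate 1 and MDD replicate 1 stood well above the others of their group, and the difference was 0.22 (interval -0.21 to 0.66, adjusted p = 0.413). Efna5, the ligand of several EphA receptors and the only ephrin-A among the 10 genes, was at 7.7, 9.8, 19.4 and 14.3 intensity units in CTRL and at 11.3, 9.0 and 6.3 in MDD. It was not well above background on any CTRL array and on 1 of 3 MDD arrays, so no fold is given.

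The pattern of receptors against ligands was also read array by array. The median receptor deviated from its CTRL mean by 0.24, -0.00, -0.01 and -0.12 in the CTRL pups and by -0.22, -0.20 and -0.46 in the MDD pups. For the median ligand the deviations were 0.15, -0.12, -0.02 and -0.05 in CTRL and 0.42, 0.13 and 0.09 in MDD. The receptor median of each MDD pup was thus below that of each CTRL pup, although single receptors overlapped, and the ligand medians of MDD replicates 2 and 3 were within the CTRL range. The number of receptors below their CTRL mean was 2, 3, 4 and 4 of 6 in the CTRL pups and 4, 4 and 6 in the MDD pups, so by this count MDD replicates 1 and 2 did not differ from CTRL replicates 3 and 4. Receptor median minus ligand median was -0.42, without a test, and it was -0.09 with the trends of gene length and signal removed. The EphA receptors had a median of -0.39 with 2 of 4 called, both lower. Of everything tested 20.4% was called, and 7.72% was called lower. Named genes longer than 100 kb, as these 4 are, had a median of -0.25, with 15.1% called lower. The EphB receptors had a median of -0.09 with 0 of 2 called by limma (and 0 at an unadjusted p under 0.05). This split was chosen after the values were seen, and it depends on the probe. Averaging the 2 probes moved Ephb1 from -0.12 to -0.32 and Epha4 from -0.13 to -0.28.

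Other members of the family were measured for 3 receptors and 3 ligands, and none passed (limma, with 1 receptor and 1 ligand at an unadjusted p under 0.05). Ephb6, a receptor without kinase activity, had -0.41, -0.70, -0.70 and -0.45 in CTRL and -0.13, -0.25 and -0.11 in MDD. Its groups did not overlap, as for 36.5% of everything tested, and the difference was 0.40 (interval 0.11 to 0.69, adjusted p = 0.0545). Efna4, a lipid-anchored ephrin, had -3.89, -4.08, -3.86 and -4.27 in CTRL and -3.78, -3.49 and -2.85 in MDD. Its groups did not overlap either, and MDD replicate 3 was the highest (difference 0.65, interval 0.14 to 1.16, adjusted p = 0.0696). Each passed in 4 of 18 alternatives, among them the authors' deposited table (adjusted p = 0.0436 and 0.0290), and the adjusted p over all alternatives ran from 0.0360 to 0.446 for Ephb6 and from 0.0290 to 0.213 for Efna4. Epha2, a receptor best known from epithelia, was at 0.13 (adjusted p = 0.450), Ephb4, the receptor of veins, at -0.06 (0.870), Efna1 at 0.07 (0.773) and Efna2 at 0.10 (0.622). Over the whole family, a grouping made after the values were seen, 7 of 9 measured receptors had a lower mean in MDD and 5 of 6 measured ephrins a higher one. With the trends of gene length and signal removed, 2 of 9 receptors had a lower mean, Epha5 and Epha7, and 5 of 6 ephrins a higher one. Ephb4, one of the 7, changed sign under 5 of 17 alternatives. No probe could be matched to Epha6, Epha8, Epha10, Ephb3 or Efna3, and Epha1 was not well above background on any array.

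**Figure D3:**
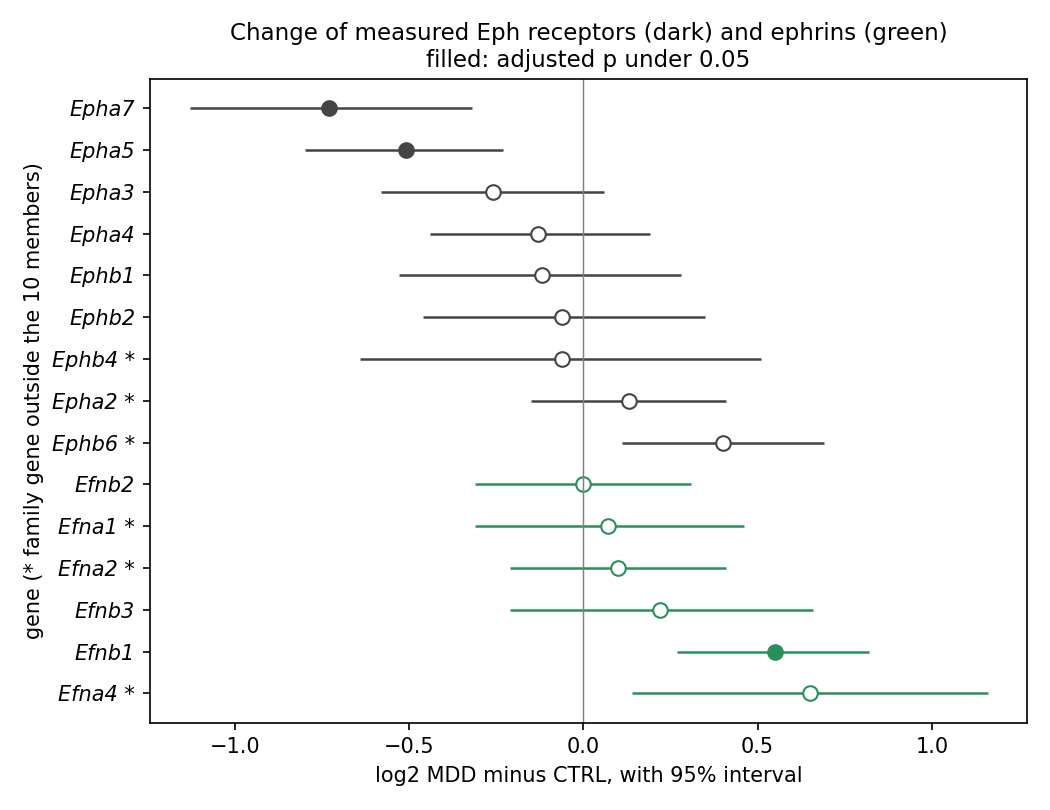
Log2 change (MDD minus CTRL) with its 95% interval for the 15 measured genes of the family, receptors in dark grey above and ephrins in green below, ordered by change, with filled points for an adjusted p under 0.05 and an asterisk for genes outside the 10. Epha7 and Epha5 lie lowest, the intervals of Efnb1, Efna4 and Ephb6 lie above 0, and Efnb1 is the filled point among these 3.

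Change in these data differed with the length of the gene, and the receptors and ligands of the set differ in length. The measured receptors outside the set are shorter than those in it, at 15.3 kb (Ephb6), 25.3 kb (Ephb4) and 28.5 kb (Epha2). All 6 receptors of the set span more than 100 kb in the RefSeq table, from 143 kb for Epha4 to 437 kb for Ephb1. Its measured ligands span 7.45 kb (Efnb3), 12.8 kb (Efnb1) and 44.0 kb (Efnb2). Of 1507 named genes longer than 100 kb, 77.8% had a lower mean in MDD, the median was -0.25, and 15.1% were called lower and 1.79% higher. Of 4620 genes from 20 to 100 kb, the class of Ephb4, Epha2 and Efnb2, the median was -0.12. In that class 4.52% were called higher and 8.74% lower. Of 5839 genes up to 20 kb, the median was 0.15, and 19.3% were called higher and 2.88% lower. The receptor median of -0.19 thus lay between the medians of the middle and the longest class. Length classes were set after the values were seen.

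When the trend of each array with gene length and signal was removed, the receptor median turned from -0.19 to 0.07 and the ligand median went from 0.22 to 0.16. Efnb1 kept its rise (log2 0.53, interval 0.31 to 0.74, limma adjusted p = 0.0264). Epha7 then stood at -0.41 (interval -0.74 to -0.08, adjusted p = 0.0902) and Epha5 at -0.25 (interval -0.50 to 0.00, adjusted p = 0.156), so neither was called. In that fit 11.7% of 11966 named genes were called. Epha3 (0.04), Epha4 (0.11), Ephb1 (0.15) and Ephb2 (0.21) turned to a higher mean without passing. With no filter on dim probes, which raised the number tested to 27455, none of the 3 calls held, although the changes were the same (adjusted p = 0.0627 for Epha5, 0.0620 for Epha7 and 0.0501 for Efnb1, and all 3 at an unadjusted p under 0.05).

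**Figure D4:**
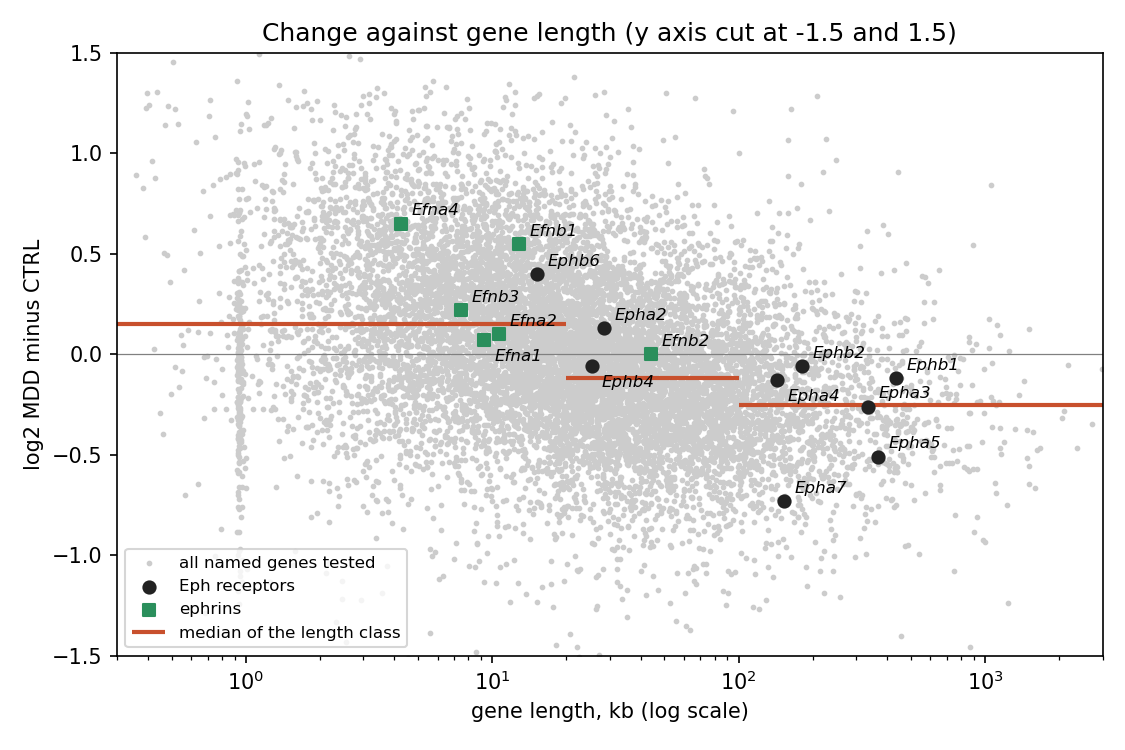
Log2 change (MDD minus CTRL) against gene length in kb on a log axis, for all 11966 named genes tested (grey), with measured Eph receptors (black circles), ephrins (green squares) and red bars at the median of 3 length classes. The 6 receptors of the set lie to the right of 100 kb, where the median is -0.25, and the measured ephrins lie to the left of 50 kb, with Efnb1 at 0.55 and 5839 genes up to 20 kb at a median of 0.15.

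**Figure D5:**
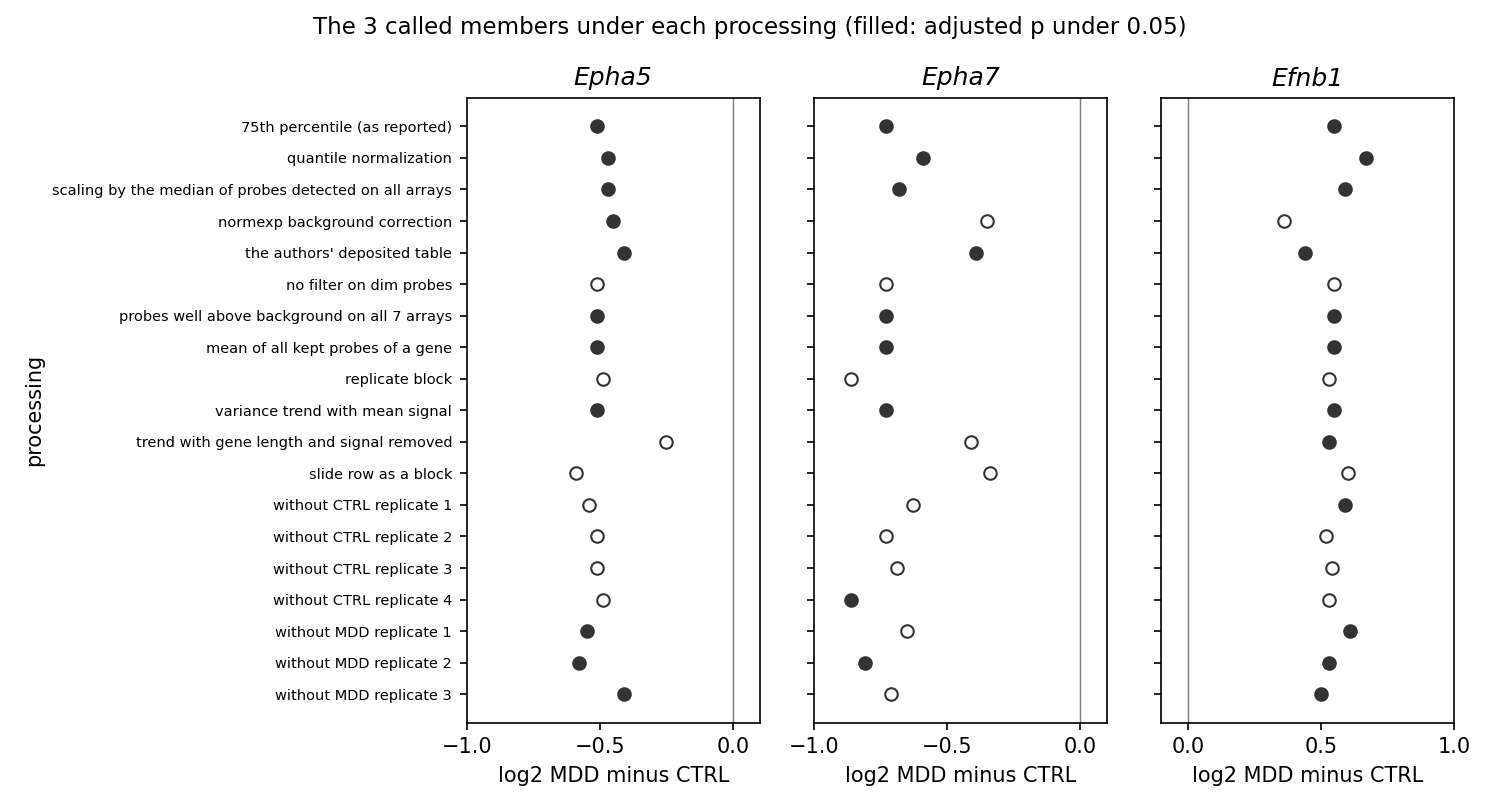
Log2 change (MDD minus CTRL) of Epha5, Epha7 and Efnb1 under each of 19 ways of processing, with filled points for an adjusted p under 0.05. The sign is the same in every row for all 3 genes, with Epha5 from -0.59 to -0.25, Epha7 from -0.86 to -0.34 and Efnb1 from 0.36 to 0.67, and the points are open in several rows for each.

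Genes that carry Eph and ephrin signals inside the cell are to be read against the 12.7% of everything tested that was called higher and the 7.72% called lower. In the list of forward signalling, 0 of 30 measured genes rose and 2 fell by limma (1 and 9 at an unadjusted p under 0.05), with a median of -0.13. Anks1b, of a family of adaptor proteins that bind Eph receptors, had a CTRL mean of -0.52 ± 0.10 (SD, n = 4) and an MDD mean of -1.01 ± 0.21 (SD, n = 3), 1.41-fold lower (adjusted p = 0.0378). Kalrn, which encodes the exchange factor kalirin that acts below EphB receptors in dendritic spines, was at -3.50 ± 0.09 and -4.01 ± 0.27, 1.42-fold lower (adjusted p = 0.0448). Both are very long genes, of 1170 and 606 kb, and with the trend removed they stood at -0.18 and -0.15 without passing (adjusted p = 0.347 and 0.482). In the list of reverse signalling and ephrin shedding, 1 of 17 measured genes rose and 0 fell (2 and 3 unadjusted), with a median of -0.06. The gene that rose was Pick1, a PDZ protein that binds ephrin-B and AMPA receptors, at -1.77 ± 0.04 in CTRL and -1.28 ± 0.21 in MDD, 1.41-fold higher (adjusted p = 0.0335), and it passed with the trend removed (log2 0.50, adjusted p = 0.0447). Anks1b, Kalrn and Pick1 each passed in 1 of the 7 fits that leave out an array. Among 28 measured genes of the netrin, Slit and semaphorin systems, the other guidance cues, 0 rose and 4 fell (2 and 9 unadjusted), with a median of -0.27. They were Plxnb3 (1.48-fold lower, adjusted p = 0.0186), Unc5b (1.49-fold, 0.0214), Sema5a (1.48-fold, 0.0219) and Sema4d (log2 -0.58, 0.0443), and they passed in 4, 3, 3 and 1 of those 7 fits. Plxnb3, Unc5b and Sema5a span 14.5, 66.6 and 431 kb, and Sema4d is also longer than 100 kb. With the trend removed Plxnb3 passed (log2 -0.61, adjusted p = 0.0278), whereas Unc5b (-0.39, 0.0618), Sema5a (-0.26, 0.148) and Sema4d (-0.33, 0.161) did not.

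Among 11957 other named genes, those whose profile over the 7 arrays was most like that of each called gene were found by the root mean square difference after centring. For Epha5 they were Luc7l2 (0.050 on the log2 scale), Riok3 (0.054) and Pdcd6ip (0.056), against a median of 0.356 over all genes. For Epha7 they were Ate1 (0.101), Zfp280d (0.102) and Mapkbp1 (0.106), against a median of 0.454. For Efnb1 they were Cdk10 (0.051), Entpd2 (0.061) and Apeh (0.065), against a median of 0.362. These 9 were themselves called, in the direction of the gene they resemble, and the group difference is part of this likeness.

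Markers of cell types moved in part with the groups. Markers counted as higher or lower are those called by limma at an adjusted p under 0.05. These counts stand beside the 12.7% of everything tested that was called higher and the 7.72% called lower. The summed linear signal of granule neuron markers, in multiples of the 75th percentile, was 98.4 to 104 in CTRL and 85.2 to 95.7 in MDD, with 0 of 10 higher and 3 lower. Microglial markers summed to 9.32 to 10.1 and 13.3 to 18.5, with 7 of 11 higher and 1 lower. The Purkinje sum was 191 to 214 and 217 to 275, with 1 of 8 higher and 2 lower, and the sum of endothelial and mural markers was 4.53 to 5.24 and 5.43 to 6.35, with 1 of 9 higher and 0 lower. These 4 sums did not overlap between the groups. Sums of Bergmann glia and astrocytes, oligodendrocytes, their precursors, meningeal fibroblasts and choroid plexus overlapped, with ranges of 81.5 to 90.9, 253 to 271, 5.65 to 7.49, 13.7 to 23.6 and 98.3 to 134 in CTRL and 80.2 to 96.4, 239 to 368, 5.44 to 6.09, 19.1 to 23.0 and 115 to 274 in MDD. In these 5 lists, 1 of 8, 0 of 8, 0 of 6, 0 of 8 and 0 of 8 measured markers were called higher. In the same order, 0, 1, 0, 0 and 0 were called lower. A count of 0 does not mean level values. All 6 precursor markers had a lower mean in MDD (median log2 -0.24). Of the choroid plexus markers, 6 had a higher mean and 2 a lower one (median 0.27, with 3 higher at an unadjusted limma p under 0.05). No measured marker was at 0. Sox9 and Vwf were not among the measured genes, either for want of a matched probe or because of the filter. The part of cell composition in the fall of Epha5 and Epha7 and in the rise of Efnb1 was not tested.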

How the data were processed

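Cy3-labelled RNA of 7 cerebella was hybridised to Agilent rat arrays. The deposited scanner tables hold linear intensities per spot from Agilent Feature Extraction, background-subtracted and detrended within each array per the file headers, and flags scored 0 or 1 per the file headers. The authors' normalized table holds linear intensities made by a method that these sources leave unstated, and its column names show the group but not the sample.

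The processed signal was divided by the 75th percentile of its array and taken to log2. Control and outlier spots were left out, and spots of a probe averaged. A probe was kept (22255 of 30367) if 3 or more of 7 arrays had 50% or more of its spots well above background. Unversioned accessions were matched to RefSeq genes (GRCr8), which named 18355 probes, and the brightest kept probe stood for a gene. This gave 11966 named genes and 8025 unnamed probes.

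Groups came from the titles. The fit of MDD against CTRL used limma 3.58.1 under R 4.3.3 (lmFit, eBayes, two-sided, 5 residual degrees of freedom). The code was tested on simulated arrays in which 200 of 19991 genes and probes were changed. It recovered 53 of 100 changes of log2 size 1 and 0 of 100 of size 0.5, with 2 false calls. Far fewer genes changed there than were called in these data, so its rates do not carry over directly. The members and lists were chosen with earlier results of these data known. Named genes are the 10 members, measured family genes, up to 6 passing members of each list by smallest p (2 where none passed) and the 3 most alike genes of each called member. Alternatives were other scalings (quantile, median), normexp, the authors' table, filters, probe averaging, a replicate block, a variance trend, removal of trends with length and signal (mgcv 1.9.3), leaving out each array and, added after the data were seen, the slide row as a block. The scanner tables hold no mean spot signal, so normexp (offset 50) used the median signal. Array depth is given in the text, and the sampling error of spots was not modelled.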

Additional observations from a re-analysis of the deposited data

Results flagged for a closer look

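In 15 family genes the 4 CTRL values were screened for a sample far from the rest of its group. Efnb3 in CTRL replicate 1 stood apart, with a gap to its nearest neighbour of 0.932 of the group's range, above the 95% critical value of Dixon's test for 4 samples. Efna2 in CTRL replicate 2, the lowest of its group, had a gap of 0.876 of the range. Chance flags about 1 in 20 groups, and 2 of 15 were flagged here. Neither gene was called in the comparison of MDD with CTRL.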

How the results depend on the processing

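The changes of Epha5, Epha7 and Efnb1 kept their sign under all 18 alternatives, and the call held under 10, 8 and 11 of them. With normexp 872 genes were lower and 2310 higher (72.6% of calls higher, 62.2% before), and 1 member was lower and 0 higher by limma (3 at an unadjusted p under 0.05). With no filter 1593 were called, 1205 higher and 388 lower, and 0 members (3 unadjusted). With length and signal trends removed 1403 were called, 819 higher and 584 lower, 1 member was higher and 0 lower (2 unadjusted), the receptor median was 0.07 and receptors minus ligands -0.09. With the slide row as a block, chosen after seeing the data, 1 gene or probe was called, 0 higher and 1 lower (4072 at an unadjusted p under 0.05), and 0 members, 0 higher and 0 lower. That fit sets 1 CTRL array against 3 MDD arrays in row 2 and assumes that this array varies like the others. Leaving out 1 array gave 1022 to 5234 calls, 799 to 2905 higher and 223 to 2329 lower, the lowest without CTRL replicate 4. Members called ran from 0 to 3, higher from 0 to 1 and lower from 0 to 2, and receptors minus ligands from -0.56 to -0.32.

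Genes not called changed sign under some alternatives. With quantile normalization Ephb2 was at 0.03, Efnb2 at 0.09 and Ephb4 at 0.08, with median scaling Efnb2 at 0.04, with normexp Ephb4 at 0.01, and on the authors' deposited table Ephb2 at 0.09 and Efnb2 at 0.05. With trends removed Epha3 was at 0.04, Epha4 at 0.11, Ephb1 at 0.15, Ephb2 at 0.21, Efnb2 at 0.16, Ephb4 at 0.09 and Efna1 at -0.07. With the slide row as a block Ephb2 was at 0.11, Efnb2 at 0.02, Epha2 at -0.03 and Efna1 at -0.15. Leaving out 1 array gave -0.28 to 0.07 for Ephb1, -0.18 to 0.12 for Ephb2, -0.07 to 0.11 for Efnb2, -0.41 to 0.13 for Ephb4 and -0.03 to 0.16 for Efna1. The cause was not tested.

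The titles number the replicates of both groups. Deviations of same-numbered pups correlated across genes at 0.095, -0.18 and 0.22, and not every pup correlated best with its own number. The titles do not say what a number stands for. With 3 such pairs, these correlations cannot show whether pups of the same number shared a batch. CTRL replicate 4 has no MDD pup of its number, so it does not bear on the difference in a fit with the replicate block. The changes of Epha5, Epha7 and Efnb1 in that fit equal those with CTRL replicate 4 left out. It also has fewer residual degrees of freedom than the main fit, so its loss of calls cannot be laid to a batch. With the replicate block limma called 0 genes, 0 higher and 0 lower (6159 at an unadjusted p under 0.05), and 0 members, 0 higher and 0 lower (3 unadjusted), with Epha5 at -0.49, Epha7 at -0.86 and Efnb1 at 0.53 (adjusted p = 0.119, 0.0667 and 0.110).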
